A study of Mus musculus with 18 samples.

Results

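Mouse mammary tumour cells of the line M-Wnt, grown for 72 h without folic acid, were compared with cells of the line metM-Wnt grown for 72 h with it. The comparison uses 6 of the 18 arrays of the series, 3 for each group, chosen by their titles. M-Wnt carries the tissue label mammary tumor and metM-Wnt the label liver metastasis. The M-Wnt cells had RPMI 1640 medium with 0 µM folic acid and dialyzed fetal bovine serum, and the metM-Wnt cells had RPMI 1640 with 2.2 µM folic acid and 10% fetal bovine serum. M-Wnt cells in that same control medium, also on 3 arrays, show how far the lines stood apart in the same medium. Line and medium therefore both differ between the groups. Folic acid and serum change together in every comparison of media and cannot be told apart. The design text writes this concentration in mM and the labels in µM, and the labels are followed. The submitters describe the 3 arrays as biological replicates, with no more said on separate cultures. The p-values therefore measure spread between arrays. That spread was estimated over all 18 arrays, including those of groups not compared here.

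Folates carry the one-carbon units that cells use to make purines and thymidylate and to regenerate methionine. Cells that lose folic acid draw on stored folate, and the one-carbon units it carries come from sources such as serine and glycine. The question here is how far M-Wnt without folic acid resembled metM-Wnt with it.

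On each array RNA of the cells (Cy5, red) competed with RNA of NIH3T3 mouse fibroblasts (Cy3, green), the common reference. A level below is a log2 ratio of red over green, and a difference is one group's mean log2 ratio minus the other's. A probe was tested when it was well above background in red on all 3 arrays of M-Wnt without folic acid or all 3 of metM-Wnt with it. That left 37217 features: 64 genes with a symbol, and otherwise single probes with no name but their ID. Mean red signal was 3722, 3418 and 1964 on the folate-deprived M-Wnt arrays and 3502, 3393 and 3268 on the metM-Wnt arrays. The third M-Wnt array was the dimmest of the 6. M-Wnt arrays in control medium were brighter, at 5134, 5170 and 4213, and whether signal strength bears on the differences was not tested. All folate-deprived M-Wnt arrays lay on 1 slide and all metM-Wnt control arrays on another, so slide and group cannot be told apart. None of 42 marker genes of epithelial, mesenchymal, mammary, liver, immune, endothelial or fibroblast cells was among the named genes tested (0 of 42), so the labelled identity of the lines could not be checked.

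The named genes that differed between the groups were few, and the sequences of 3 of their probes are given because those probes carry the named results. A further probe, A_51_P208083, is shown because it moved most with the medium among the 10 strongest probes described below. All are the deposited probe sequences, 60 bases long, in the orientation printed in the files. The RefSeq table (GRCm38.p6) places Ppid on chromosome 3 and both 2810021J22Rik and Ccdc137 on chromosome 11. The chromosome of A_51_P208083 was not looked for, and the exon or UTR that each probe reads was not checked.
Ppid: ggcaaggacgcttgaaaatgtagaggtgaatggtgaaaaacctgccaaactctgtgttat
2810021J22Rik: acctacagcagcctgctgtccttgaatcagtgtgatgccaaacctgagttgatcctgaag
Ccdc137: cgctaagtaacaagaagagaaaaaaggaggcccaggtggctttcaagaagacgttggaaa
A_51_P208083: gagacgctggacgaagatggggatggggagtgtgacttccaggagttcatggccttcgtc

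M-Wnt without folic acid differed from metM-Wnt with it in 4213 of 37217 features (11.3%) at a Benjamini-Hochberg adjusted p under 0.05 in limma, and 2163 of these were higher (5.81%) and 2050 lower (5.51%) in M-Wnt. Differences of at least 2-fold were made by 591 features (1.59%), 411 higher (1.1%) and 180 lower (0.484%). A further test against a difference of 2-fold itself left 72 features. Most features were close in both groups: the 95% interval of the difference lay within 2-fold for 32353 features (86.9%), and the median size of a difference was 0.21.

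In control medium, also after 72 h, M-Wnt differed from metM-Wnt in 3823 features (10.3%), with 1757 higher (4.72%) and 2066 lower (5.55%) in M-Wnt. Of the 648 that differed at least 2-fold (1.74%), 162 were higher (0.435%) and 486 lower (1.31%). The test against a difference of 2-fold itself left 115 features (0.309%), beside 72 (0.193%) without folic acid. The interval lay within 2-fold for 33300 features (89.5%), and the median size of a difference was 0.19. Both comparisons use the same metM-Wnt arrays, so their counts are not independent. In neither comparison did the groups share a slide, so slide and group cannot be told apart. The at least 2-fold differences thus leaned lower in M-Wnt with folic acid and higher without it, but this lean depends on the scaling. The filter takes no probe for its signal in M-Wnt control. Over probes well above background in any of the 6 groups the counts were 405 higher and 179 lower without folic acid, and 166 higher and 483 lower with it. With each array centred on its median, in place of a loess curve, 156 were higher and 335 lower without folic acid, and 348 higher and 233 lower with it. That centring moved the median difference of all features from 0.01 to -0.15 without folic acid and from -0.04 to 0.16 with it. It also left 797 calls without folic acid, 30.0% of them higher, against 51.3% under loess, and 830 with it. The share of all calls that were higher was 43.1% with Agilent's processed signals and 42.6% with the red channel alone. The at least 2-fold differences kept their lean under both of these scalings. With processed signals 668 were higher and 539 lower without folic acid, and 295 and 624 with it. With the red channel alone the counts were 457 and 266, and 224 and 473. Single arrays counted too: 2303 features were called without M-Wnt withdrawal replicate 1, 2026 without M-Wnt withdrawal replicate 2 and 2467 without metM-Wnt control replicate 1.

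**Figure D1:**
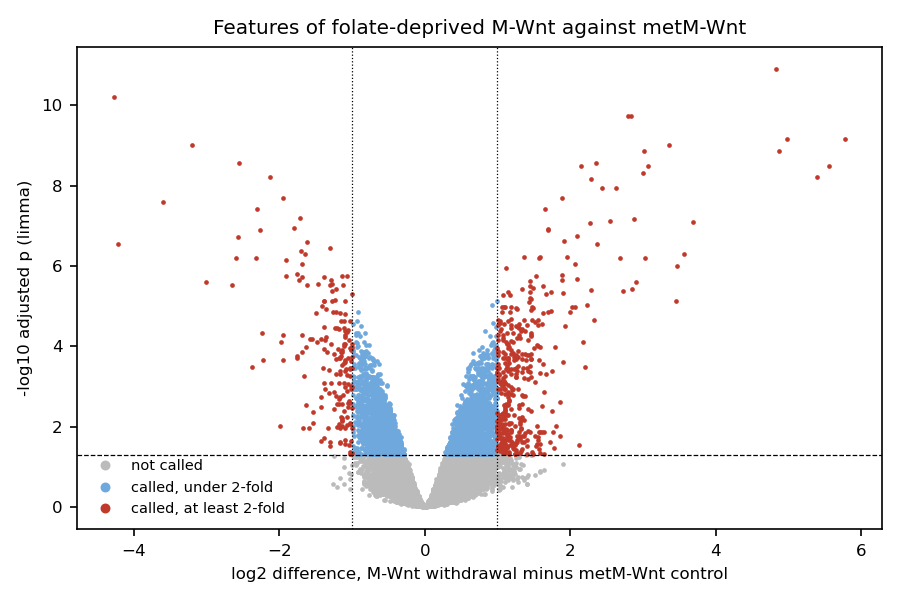
Each point is a feature or several with the same rounded values. The x axis is the log2 difference of M-Wnt without folic acid minus metM-Wnt with it and the y axis is -log10 of the adjusted p from limma. The 411 points at the upper right and the 180 at the upper left are called and at least 2-fold apart, and they reach 5.78 and -4.27 among the probes named here.

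Over all features, folate-deprived M-Wnt and M-Wnt in control medium lay at overlapping distances from metM-Wnt. The root mean square log2 difference from the mean metM-Wnt profile over the 37217 features was 0.399, 0.436 and 0.413 on the arrays without folic acid. It was 0.391, 0.399 and 0.415 on the arrays with folic acid. The groups overlap, with means of 0.416 ± 0.019 (SD, n = 3) and 0.401 ± 0.012 (SD, n = 3). They differed by 0.0144, with a 2-sided exact permutation p of 0.4 over 20 arrangements, of which 0.1 is the smallest that 3 arrays against 3 can give. Without metM-Wnt control replicate 1 the difference was -0.0134. The folate-deprived mean was the nearer to metM-Wnt in 17120 features (46.0%), a description added after the data were seen. Over probes bright in any of the 6 groups, M-Wnt control included, the difference in distance was 0.0137 and the share 46.6%. Without metM-Wnt control replicate 1 the share was 50.9%.

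Measured array by array, folate-deprived M-Wnt lay 0.378 to 0.564 from the metM-Wnt arrays, with a median of 0.443. M-Wnt in control medium lay 0.395 to 0.503 from them, with a median of 0.455. Folate-deprived and control M-Wnt lay 0.397 to 0.557 apart, with a median of 0.487, and these distances overlap those between the lines. By calls at an adjusted p under 0.05 the media stood further apart within M-Wnt than the lines did in control medium. The media differed in 7495 features (20.1%), 1008 of them at least 2-fold, beside 3823 (10.3%) and 648 between the lines. The test against a difference of 2-fold itself had the opposite order. It left 86 features (0.231%) between the media and 115 (0.309%) between the lines. The counts within M-Wnt were not repeated under other scalings. Arrays of 1 group were closer: the median was 0.366 within metM-Wnt control, with single pairs from 0.302 to 0.417, and the highest pair within M-Wnt without folic acid was at 0.301. The highest pair within metM-Wnt control overlaps the lowest pairs between the lines.

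**Figure D2:**
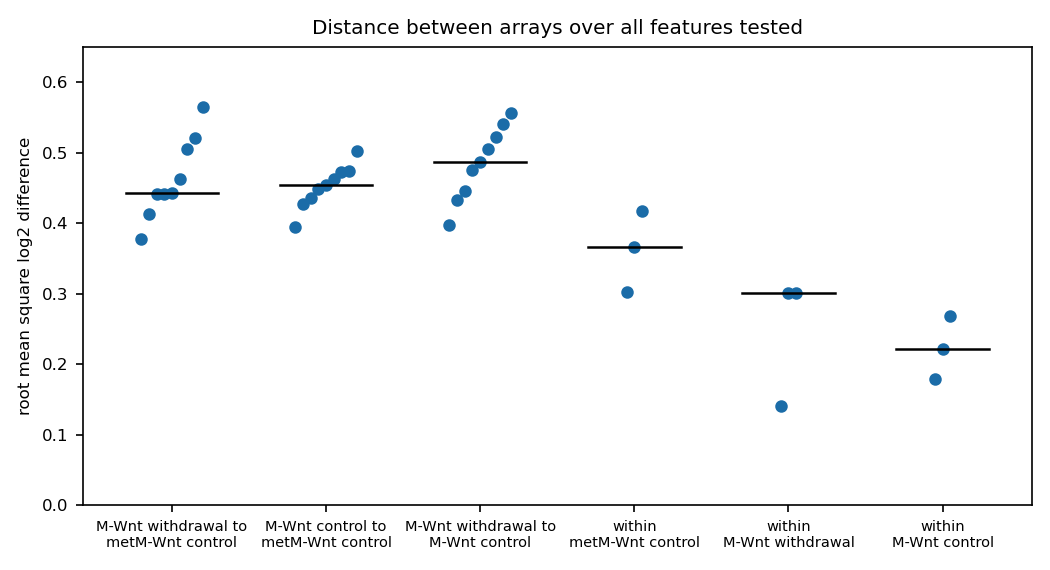
Each point is a pair of arrays, the y axis is the root mean square log2 difference over 37217 features, and the line is the median of the pairs. The first and second columns overlap, with medians of 0.443 and 0.455, and the medians within a group lie lower. The highest pair within metM-Wnt control, at 0.417, overlaps the lowest pairs between the lines.

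Among probes without an accession in the ID, the 5 with the highest positive difference were also above metM-Wnt in control medium, and the 4 of them that were measured in both lines were 12.8-fold or more above it without folic acid. They were chosen with no overlap between the groups compared, and the lines stayed apart in control medium too. A_51_P145453 was at 0.20, 0.32 and 0.57 in folate-deprived M-Wnt and at -5.36, -5.17 and -5.72 in metM-Wnt. The groups lay far apart, by 5.78 ± 0.25 (SE, n = 3 per group, adjusted p = 7.02e-10, limma), or 54.8-fold. In control medium M-Wnt stood 4.94 ± 0.25 above metM-Wnt (adjusted p = 3.31e-09).

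A_52_P362360 was at 0.24, 0.50 and 0.46 against -4.51, -4.36 and -4.87, a difference of 4.98 ± 0.22 (adjusted p = 7.04e-10, limma), beside 4.55 in control medium. A_51_P461868 was at -0.23, -0.33 and -0.27 against -5.02, -5.15 and -5.15, a difference of 4.83 ± 0.14 (adjusted p = 1.26e-11), beside 5.06 in control medium. The 2 probes differ in E-Wnt, the third line of the series: in control medium A_52_P362360 had a mean of 0.46 there, near that of M-Wnt, and A_51_P461868 a mean of -5.71, near that of metM-Wnt. A_51_P450248 was at 5.04, 4.83 and 4.74 against 1.42, 1.18 and 0.98, a difference of 3.68 ± 0.24 (adjusted p = 7.95e-08), beside 3.32 in control medium. It was high in both lines and had no overlap between them.

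A_52_P113537 was at 1.13, 1.16 and 1.86 in folate-deprived M-Wnt and at -2.196, -1.80 and -2.55 in metM-Wnt, where it was not well above background on any array (0 of 3). The log2 ratios differed by 3.56, and by 3.13 in control medium. The probe passed the filter only through folate-deprived M-Wnt, so its difference is a description. Since metM-Wnt was not measured above background, no fold is read from these values. The arrays of the groups do not overlap, which was a condition for choosing the probe.

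The 5 probes with the strongest negative difference were also below metM-Wnt in control medium, and the 4 of them that were measured in both lines were 8.02-fold or more below it without folic acid. A_51_P328631 was at 0.22, 0.15 and 0.18 in folate-deprived M-Wnt against 4.42, 4.35 and 4.60 in metM-Wnt. The difference was -4.27 ± 0.15 (adjusted p = 6.49e-11, limma), beside -4.40 in control medium, so the lines stood about equally far apart in both media. A_51_P260740 was at -2.44, -2.50 and -2.202 against 1.14, 2.06 and 2.33, a difference of -4.22 ± 0.31 (adjusted p = 2.84e-07), beside -4.45. Its metM-Wnt arrays were the more spread, with an SD of 0.62 against 0.16.

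A_52_P599317 was at -5.07, -5.07 and -4.40 in folate-deprived M-Wnt, where it was not well above background on any array (0 of 3), and at -1.34, -1.09 and -1.29 in metM-Wnt. The log2 ratios differed by -3.60, and no fold is read from them. The probe passed the filter only through metM-Wnt, so its difference is a description. A_51_P468260 was at -2.17, -2.30 and -2.02 against 1.19, 0.78 and 1.11, a difference of -3.19 ± 0.14 (adjusted p = 9.85e-10), beside -3.88 in control medium. A_51_P208083, whose sequence is given above, was at -2.23, -2.26 and -2.26 against 0.60, 0.76 and 0.90, a difference of -3.00 ± 0.26 (adjusted p = 2.44e-06). In control medium its difference was -4.21, and its M-Wnt arrays then read -3.39, -3.44 and -3.54. This probe stayed 8.02-fold below metM-Wnt while standing closer to it without folic acid. The probes measured in both lines were called with the same sign under every alternative processing and with each array left out in turn. They were picked as called and largest in these same arrays, so this repeat is a description. A_52_P113537 and A_52_P599317, whose differences are descriptions, were not tested where the filter required signal in both groups.

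A different pattern was found in probes that stood at least 4-fold apart between the lines in control medium and within 2-fold after folic acid was removed. These probes were picked for that pattern, so their values are a description with no test. All 29 probes without an accession in the ID that met the rule with separate arrays were lower in M-Wnt control and 0 were higher. A probe that was high in M-Wnt control and dim in both other groups had not passed the filter, so no direction is read from this. The 3 with the largest difference in control medium are described.

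A_51_P164219 was at -1.97, -2.17 and -2.31 in M-Wnt with folic acid and at 2.45, 2.55 and 2.44 without it. In metM-Wnt control it was at 2.81, 1.73 and 3.05, around the folate-deprived M-Wnt values. The difference from metM-Wnt went from -4.68 to -0.05 with a 95% interval of -0.76 to 0.66. The M-Wnt control array at -2.31 lay on the slide of the folate-deprived arrays, and the metM-Wnt control arrays lay on another. Whether slide bears on these values was not tested.

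A_52_P186937 was at -2.68, -2.94 and -2.74 with folic acid, at 1.001, 0.90 and 0.70 without it, and at 0.43, 0.14 and 1.07 in metM-Wnt control. Its difference from metM-Wnt went from -3.34 to 0.32 (95% interval -0.31 to 0.95). A_51_P421876 was at -0.54, -0.35 and -0.26 with folic acid, at 2.77, 2.58 and 2.97 without it, and at 3.28, 1.91 and 2.84 in metM-Wnt control. Its difference went from -3.06 to 0.09 (95% interval -0.66 to 0.85). For all 3 probes the folate-deprived M-Wnt arrays lay within or next to the range of the metM-Wnt control arrays.

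In metM-Wnt itself all 3 probes read lower without folic acid than with it, with no overlap between arrays. The metM-Wnt mean of A_51_P164219 was 2.53 ± 0.70 (SD, n = 3) with folic acid and 0.35 ± 0.11 without it. That of A_52_P186937 was 0.55 ± 0.48 with folic acid and -1.09 ± 0.13 without, and that of A_51_P421876 was 2.68 ± 0.70 and 1.03 ± 0.35. In the folate-deprived media M-Wnt thus had the higher means, at 2.48, 0.87 and 2.77. E-Wnt in control medium had means of 1.92 ± 0.70, -1.95 ± 0.46 and 0.25 ± 0.33, the first of them close to metM-Wnt.

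**Figure D3:**
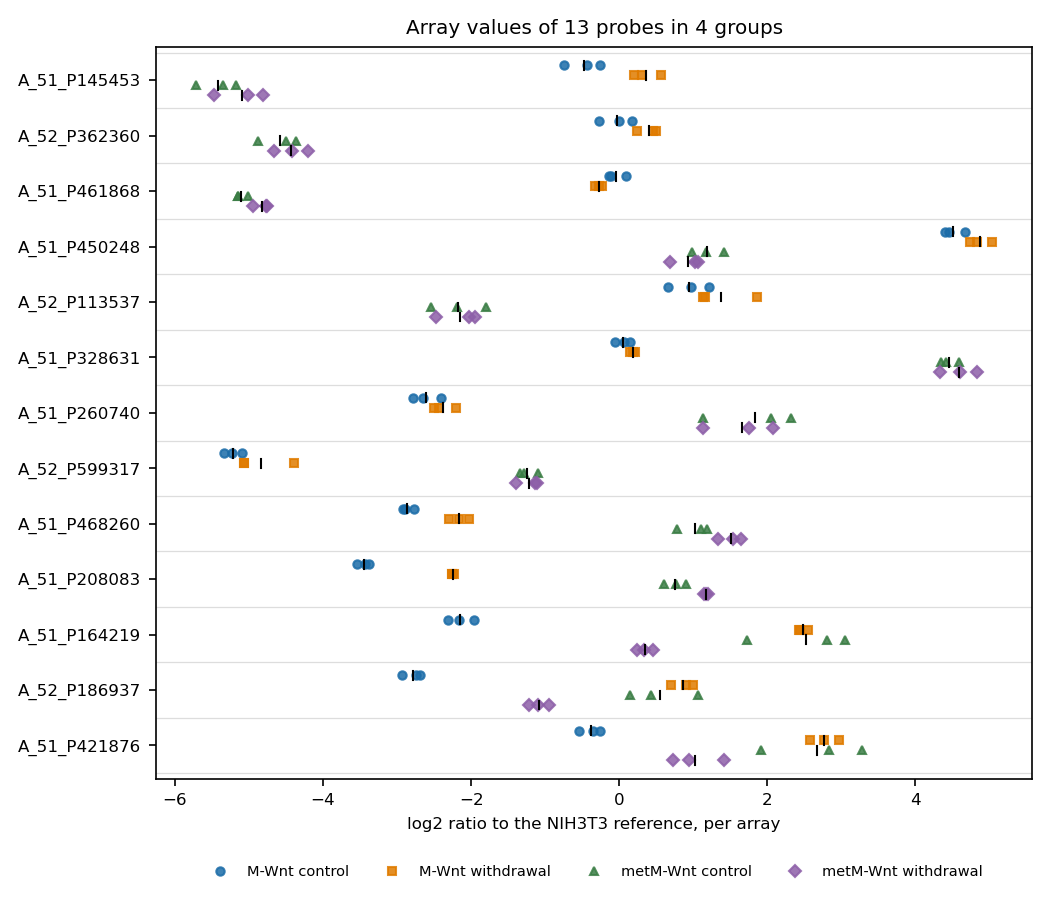
The x axis is the log2 ratio to the NIH3T3 reference, each point is an array, marks are group means, and colours and shapes give the 4 groups of M-Wnt and metM-Wnt. In the upper 10 rows the lines stay apart in either medium. In the lower 3 rows folate-deprived M-Wnt (orange squares) lies with metM-Wnt control (green triangles) while M-Wnt control lies to the left.

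The at least 2-fold features were also read on arrays that the comparison did not use: M-Wnt with folic acid against metM-Wnt without it. In this reading the media are swapped between the lines, so line, medium and the choice of features all enter the shares below. How far the differences follow the line alone was not tested. The reading was added after the data were seen. Its arrays are separate, but 1 array of each of its groups shares a slide with the groups compared above, and the spread is estimated over all 18 arrays. There 5388 features were called (14.5%), 2774 higher (7.45%) and 2614 lower (7.02%) in M-Wnt. Of the 411 higher features, 225 were also higher in M-Wnt by their means (54.7%, against 46.3% of all features), 129 of them called higher (31.4%), and 41 were called lower. Of the 180 lower features, 128 were also lower by their means (71.1%, against 53.7% of all features), 88 of them called lower (48.9%), and 20 were called higher. The median difference of the 411 features was 1.24 in the comparison itself and 0.11 on the separate arrays, and that of the 180 was -1.22 and -0.60. Both lists were chosen for their size in the first of these comparisons, so the first medians are descriptions.

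These shares also moved with the scaling. With median centring 92.3% of the features then higher were also higher on the separate arrays, and 42.7% of those then lower were also lower. The shares of all features under that centring were not counted, so nothing about the listed features is read from these values. Read by group, the 411 higher features had a median of group means of 0.09 in folate-deprived M-Wnt, against -0.86 in M-Wnt control, -1.32 in metM-Wnt control and -0.996 in metM-Wnt withdrawal. The 180 lower features had a median of -0.69 in folate-deprived M-Wnt and -0.15 in M-Wnt control, against 0.67 in metM-Wnt control and 0.51 in metM-Wnt withdrawal. All features had medians from 0.05 to 0.07 in these groups.

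Of the 64 named genes tested, 4 were called (6.25%, against 11.3% of all features), 1 higher and 3 lower in folate-deprived M-Wnt. The interval lay within 2-fold for 55 of the 64, and the median difference was -0.07, beside 0.01 for all features. A gene's value comes from probes matched to it through an accession in the probe ID. The IDs of all these probes start with Mm_ncRNA, and the strand or transcript read by them was not checked. Tmem41b, a membrane protein of the endoplasmic reticulum that autophagosome formation requires, was at 0.89, 0.82 and 0.54 in folate-deprived M-Wnt and at 1.91, 1.79 and 1.59 in metM-Wnt. The arrays do not overlap, and the difference was -1.01 ± 0.17 (adjusted p = 0.000986, limma), 2.01-fold lower. In control medium M-Wnt was at 1.499, 1.69 and 1.90, level with metM-Wnt at a difference of -0.06 ± 0.17 (adjusted p = 0.86).

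2810021J22Rik went the same way, at 0.88, 1.03 and 0.83 in folate-deprived M-Wnt against 1.63, 1.82 and 1.80 in metM-Wnt. The difference was -0.84 ± 0.11 (adjusted p = 0.000141, limma), and in control medium it was 0.33 ± 0.11 (adjusted p = 0.0684). Both genes stood nearer to metM-Wnt with folic acid than without it, and both were called under every alternative tried. Ccdc137, which encodes a coiled-coil protein, was at 0.67, 0.68 and 0.88 against 1.40, 1.32 and 1.14, a difference of -0.54 ± 0.16 (adjusted p = 0.0352). This call was lost under median centring (adjusted p = 0.213), with Agilent's processed signals (0.141), and when M-Wnt withdrawal replicate 1 (0.115) or replicate 2 (0.127), or metM-Wnt control replicate 1 (0.123) or replicate 2 (0.0852), was left out.

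Ppid, a cyclophilin that works with the Hsp90 chaperone, was the gene called higher, at 1.17, 1.10 and 0.83 in folate-deprived M-Wnt against 0.00, 0.34 and 0.34 in metM-Wnt. The difference was 0.81 ± 0.16 (adjusted p = 0.00314, limma), or 1.75-fold. It was 0.56 ± 0.16 in control medium (adjusted p = 0.0309), so Ppid was above metM-Wnt in both media. With median centring the difference was 0.52 (adjusted p = 0.495).

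**Figure D4:**
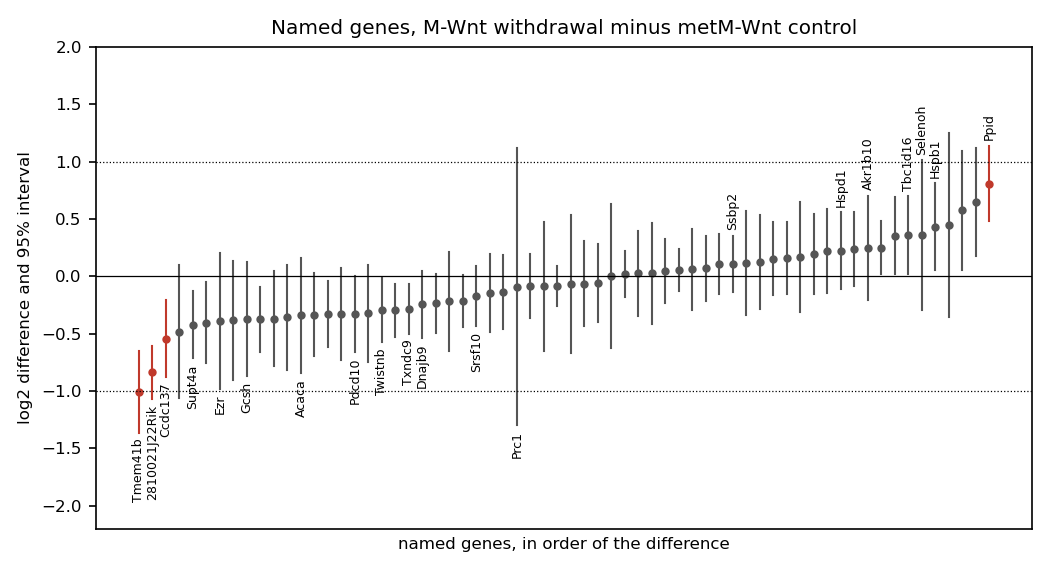
Each point is 1 of the 64 named genes in order of its log2 difference, M-Wnt without folic acid minus metM-Wnt with it, with the 95% interval from limma. Dotted lines mark 2-fold. The 4 called genes are red, Tmem41b at -1.01 lowest and Ppid at 0.81 highest, and named labels are those of genes described in the text.

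The gene lists held 176 genes, of which 18 were tested, in 8 of the 18 lists. Of the 28 genes of folate transport and one-carbon metabolism, Gcsh alone was tested. Gcsh, the lipoyl carrier protein with which glycine is cleaved to charge folate with a one-carbon unit, was at -0.50, -0.56 and -0.07 in folate-deprived M-Wnt and at 0.36, -0.12 and -0.24 in metM-Wnt. The arrays overlap, and the difference was -0.37 ± 0.23 (adjusted p = 0.316, limma), with an interval of -0.87 to 0.12.

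Among 17 heat shock and cytosolic chaperone genes, 3 were tested and 1, Ppid, was called. Hspb1, a small heat shock protein, was at -1.65, -1.63 and -1.86 in folate-deprived M-Wnt, at -2.51, -2.17 and -1.76 in metM-Wnt and at -2.81, -3.06 and -3.13 in M-Wnt control. It was below metM-Wnt in control medium by -0.85 ± 0.18 (adjusted p = 0.00556, limma). Without folic acid it was above it by 0.43 ± 0.18 (adjusted p = 0.129), and the arrays overlap. That value passed the threshold without metM-Wnt control replicate 3 (0.63, adjusted p = 0.0323). Hspd1, the mitochondrial chaperonin, differed by 0.22 (adjusted p = 0.374).

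**Figure D5:**
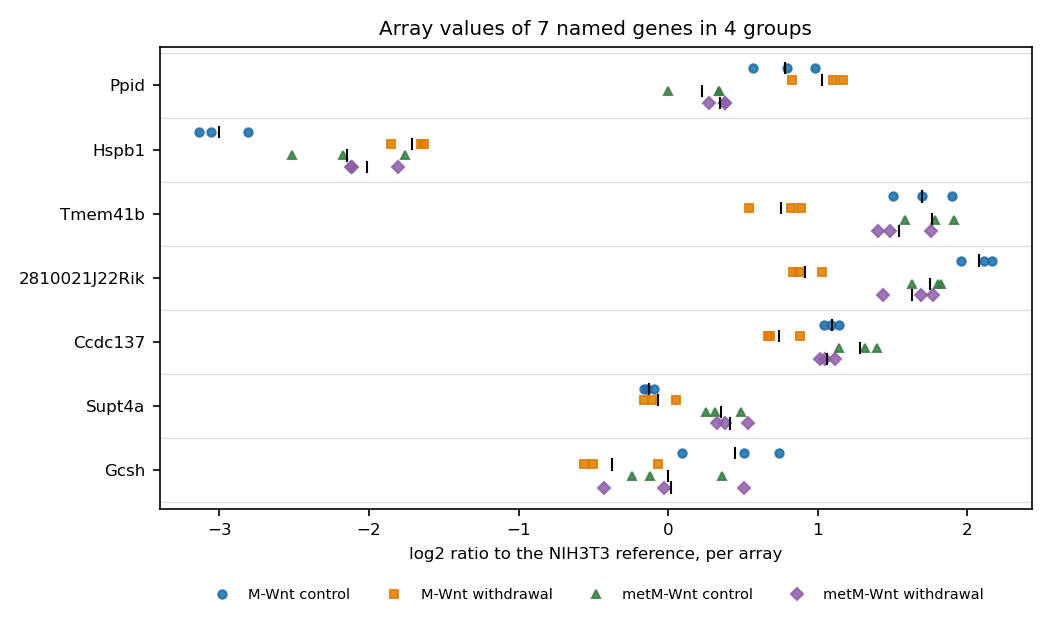
The x axis is the log2 ratio to the NIH3T3 reference, each point is an array and marks are group means in the 4 groups of M-Wnt and metM-Wnt. Tmem41b and 2810021J22Rik in folate-deprived M-Wnt (orange squares) lie to the left of the other 3 groups, while Hspb1 lies to the right of M-Wnt control and overlaps metM-Wnt control.

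In the list of splicing and transcription, 4 of 9 genes were tested and 0 were called, beside 11.3% of all features. Supt4a, a subunit of the elongation factor DSIF, was at -0.16, -0.11 and 0.05 against 0.49, 0.31 and 0.25 in metM-Wnt, a difference of -0.42 ± 0.14 (adjusted p = 0.0625, limma). Its arrays did not overlap, and in control medium the difference was -0.48 (adjusted p = 0.0373). Ssbp2, a binding protein of single-stranded DNA, differed by 0.11 (adjusted p = 0.564) and in control medium by 0.40 (adjusted p = 0.0371). Twistnb, a subunit of RNA polymerase I, differed by -0.29 (adjusted p = 0.163), and Srsf10, a splicing factor, by -0.17 (adjusted p = 0.387).

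Of 10 genes of membrane trafficking and autophagy, 4 were tested and 1, Tmem41b, was called. Tbc1d16, which switches off Rab proteins, differed by 0.36 (adjusted p = 0.162, limma) and Pdcd10 by -0.33 (0.188). Ezr, which links the membrane to actin, differed by -0.39 and was not called. Ezr was not well above background on any folate-deprived M-Wnt array (0 of 3). It passed the filter only through metM-Wnt, so its difference is a description. Of 10 genes of redox and aldo-keto metabolism, 3 were tested and 0 called: Txndc9 differed by -0.29 (adjusted p = 0.0816), Selenoh by 0.36 (0.474) and the aldo-keto reductase Akr1b10 by 0.25 (0.48). The arrays of Txndc9 and of Selenoh did not overlap. Selenoh had an SD of 0.03 in folate-deprived M-Wnt and 0.10 in metM-Wnt. Its SD was 0.99 in E-Wnt without folic acid, and the model pools the spread of all 18 arrays.

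The lists of endoplasmic reticulum stress, mitosis and fatty acid synthesis had 1 tested gene each, and none was called. Dnajb9, a co-chaperone of the endoplasmic reticulum, differed by -0.24 (adjusted p = 0.259, limma). Acaca, which makes malonyl-CoA for fatty acid synthesis, differed by -0.34 (adjusted p = 0.373). Prc1, which bundles microtubules at the spindle midzone, differed by -0.09 with a wide interval of -1.30 to 1.12. That interval uses the spread of all 18 arrays. The SD of Prc1 was 0.14 in folate-deprived M-Wnt and 0.42 in metM-Wnt, but 1.76 in E-Wnt without folic acid. A p that missed the threshold does not show that these genes were alike in the groups.

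By kind of probe, the share called ran from 4.44% to 13.1%. Of the probes whose IDs start with A_51, 1957 of 17301 were called (11.3%), and of those with A_52, 1525 of 12791 (11.9%). Apart from the probes of named genes, those that start with Mm_ncRNA and carry an AK accession were called in 521 of 3981 cases (13.1%), 236 higher and 285 lower. Several probes carried the same accession for 1265 transcripts, of which 245 had a called probe and 135 had all their probes called in the same direction, 51 higher and 84 lower. No transcript had probes called in opposite directions (0 of the 245 with a called probe), and only those with several called probes could have.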

How the data were processed

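The authors deposited scanner output, in which each spot has a linear intensity and a local background intensity in red and in green. The submitters' processing notes name Agilent Feature Extraction (10.7.3.1). The deposited series table holds the authors' log10 ratios, which equalled each array's own Feature Extraction ratio within 0.005 and had a median of 0. The array's genome build is not given in the sources used here.

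Here the intensities were corrected by normexp with an offset of 50 and turned into log2 ratios with a loess curve per array, in which control and outlier spots had weight 0. Duplicate spots were then averaged. This used limma 3.58.1 in R 4.3.3, with the data.table package (1.17.8). The probes of a named gene were averaged: 220 of 80520 probes matched 157 genes through an accession in their ID. A single limma model of 6 group means over 18 arrays was fitted (12 residual and 3.921 prior degrees of freedom), with 2-sided tests and Benjamini-Hochberg adjustment over 37217 features. The model was tested on simulated data. Figures were drawn with matplotlib 3.10.9. No spot was saturated, and precision is limited by the number of arrays. The members and lists were chosen with earlier results of these data known.

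The genes and probes named are: called named genes whose arrays did not overlap, the 5 probes each way with the largest such difference among those without an accession in the ID, 3 probes at least 4-fold apart in control medium and within 2-fold without folic acid, tested members of the gene lists, and named genes of earlier results (Hspb1, Gcsh, Tmem41b, Supt4a, Ppid and Ssbp2). Alternatives covered scaling, background correction, the filter on dim probes, the arrays fitted, weights, slide, replicate block and each array left out. Replicate numbers did not pair the arrays: same-numbered deviations correlated at -0.061, 0.111 and -0.394.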

Additional observations from a re-analysis of the deposited data

How the results depend on the processing

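Counts of calls moved most with scaling, spread and the arrays fitted. The comparison of folate-deprived M-Wnt with metM-Wnt gave 4213 calls, and 797 with median centring, 7628 over the 12 M-Wnt and metM-Wnt arrays, 11058 with array weights and 8740 with slide as a random block, whose estimated correlation was -0.143. M-Wnt against metM-Wnt in control medium gave 3823 calls, and 830, 6206, 11929 and 6619 under the same settings. Of at least 2-fold differences without folic acid, 156 were higher and 335 lower with median centring, 668 and 539 with Agilent's processed signals, and 668 and 537 with the deposited table. In control medium 348 were higher and 233 lower with median centring, 295 were higher and 624 lower with the processed signals, 296 and 624 with the table, 224 and 473 with the red channel alone, and 177 and 501 without background correction. On the separate arrays median centring gave 92.3% and 42.7%, with no share of all features counted beside them. Without the filter on dim probes 75446 features had intervals within 2-fold, since far more features were tested. The causes of the other changes were not tested.

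Leaving out 1 array at a time gave 2026 to 3574 calls without folic acid, with 298 to 442 at least 2-fold higher and 161 to 259 lower. In control medium it gave 2025 to 3179 calls, with 153 to 176 higher and 436 to 507 lower; 2025 were called without M-Wnt control replicate 2, 2060 without M-Wnt control replicate 3 and 2522 without metM-Wnt control replicate 3. Features within 2-fold numbered 30416 to 32222, the difference in distance was -0.0134 to 0.0322, the share nearer to metM-Wnt was 43.6% to 50.9%, and the shares on the separate arrays, an analysis added after the data were seen, were 50.6% to 68.8% and 60.2% to 74.9%. The replicate numbers did not pair the arrays; with the replicate number as a block 3228 features were called without folic acid and 3047 in control medium, 32000 lay within 2-fold, and the call of Ccdc137 was lost (adjusted p = 0.0576).

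Differences near 0 changed sign. A_51_P164219 was 0.0141 with the processed signals and the deposited table, and -0.4524 to 0.2073 with 1 array left out, with 0.0878 without metM-Wnt control replicate 1. A_51_P421876 was -0.1593 with median centring, -0.0058 without M-Wnt withdrawal replicate 3, and -0.2874 to 0.3948 with 1 array left out. With median centring Hspd1 was -0.1011 and Ssbp2 -0.1999, and Prc1 was 0.2568 with the red channel alone and -0.289 to 0.1264 with 1 array left out.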
